A study of Homo sapiens with 32 samples.

Results

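ZNF143, its paralogue ZNF76, and the partners THAP11 and HCFC1 are the 4 genes described here, out of 19970 protein-coding genes annotated on chromosomes 1 to 22 and X. They were chosen by name, with earlier results of these data known, and not by a cut on any measured value. For each gene, every binding summit within 2000 bp of its 5′ end was taken from 4 lists made by chromatin immunoprecipitation and sequencing (ChIP-seq), a method that recovers DNA crosslinked to a protein. That gave 52 summits out of 288727 in the 4 lists.

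ZNF143 is a zinc finger transcription factor that binds promoters of messenger RNA and small nuclear RNA genes. ZNF76 is its closest relative and shares its kind of DNA-binding domain. THAP11 carries a DNA-binding domain of the THAP type, is found at many ZNF143 sites, and binds HCFC1 directly. HCFC1 does not bind DNA itself: it is a large coregulator that DNA-bound factors recruit and that brings chromatin-modifying enzymes to promoters.

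The cells were HEK293T, an established human embryonic kidney line, in a single clone (HEK_CloneZD29) whose ZNF143 carries an inducible degron, a tag through which a small molecule triggers degradation of the protein. Untreated cells were set beside cells given 50 nM dTAGV-1 for 30 minutes, and the tag was present in both. ZNF143 was recovered through an HA epitope from 2 untreated and 2 treated samples, and a mock precipitation had 2 and 2. SP1, NRF1 and YY1, 3 other promoter-binding factors, were recovered with antibodies to the proteins, each from 4 untreated and 4 treated samples. The clone limits every statement to 1 derivative of 1 line.

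A list holds the summits of 1 antibody, each with a score on a −log10 scale (of p or of q, which is not stated), so that a higher score is stronger evidence of binding. The ZNF143 and SP1 lists are named by untreated and treated samples alike. For NRF1 and YY1 the sources used here do not say from which samples the lists were made. No list has a value per sample, so no replicate error, no test over samples and no effect of dTAGV-1 can be given, and read depth is unknown. Scores grow with depth and were compared only within a list, by rank from the highest. The lists held 16600 (ZNF143), 126275 (SP1), 39194 (NRF1) and 106658 (YY1) summits, and a peak can hold several summits.

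All 4 factors had a summit near all 4 genes, which makes 16 of 16 pairs of gene and list. Among all protein-coding genes, 37.4% had a ZNF143 summit in the same window, 66.5% an SP1 summit, 55.8% an NRF1 summit and 65.3% a YY1 summit, and 35.3% had all 4. ZNF143 itself held 17 summits, ZNF76 held 6, THAP11 held 11 and HCFC1 held 18. The ZNF143 list gave 12 of the 52, SP1 14, NRF1 12 and YY1 14, in 17 peaks. Within 100 bp, 36 of the 52 were joined by at least 1 other factor and 7 by all 3 others, 4 of these at ZNF76. The same shares over all summits of the lists were not computed. These counts therefore do not show whether such joining is more common here than elsewhere. By score, 9 of the 52 were in the top 1% of their list, 25 in the top 10% and 8 in the lower 50%. Of the 9, the NRF1 summit at THAP11 (rank 393 of 39194) is in the top 1% only after rounding. The same shares for summits near other protein-coding genes were not computed. Among protein-coding genes with a summit, the median highest score was 23.6 (ZNF143), 207 (SP1), 53.3 (NRF1) and 146 (YY1). The median over all summits of each list was lower, at 13.34, 14.05, 6.16 and 15.02. Whether high scores are more common here than near other genes is therefore not shown. At the edge of the window, the outermost summits inside were those of SP1 at −1981 bp of HCFC1 (15.4) and at 1885 bp of ZNF76 (3.11), and the nearest outside were YY1 and SP1 at 2046 and 2048 bp of HCFC1 (38.8 and 25.8). The lists differed in which gene stood highest: ZNF143 scored highest at THAP11, SP1 at ZNF143, NRF1 at THAP11 and YY1 at HCFC1.

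**Figure D1:**
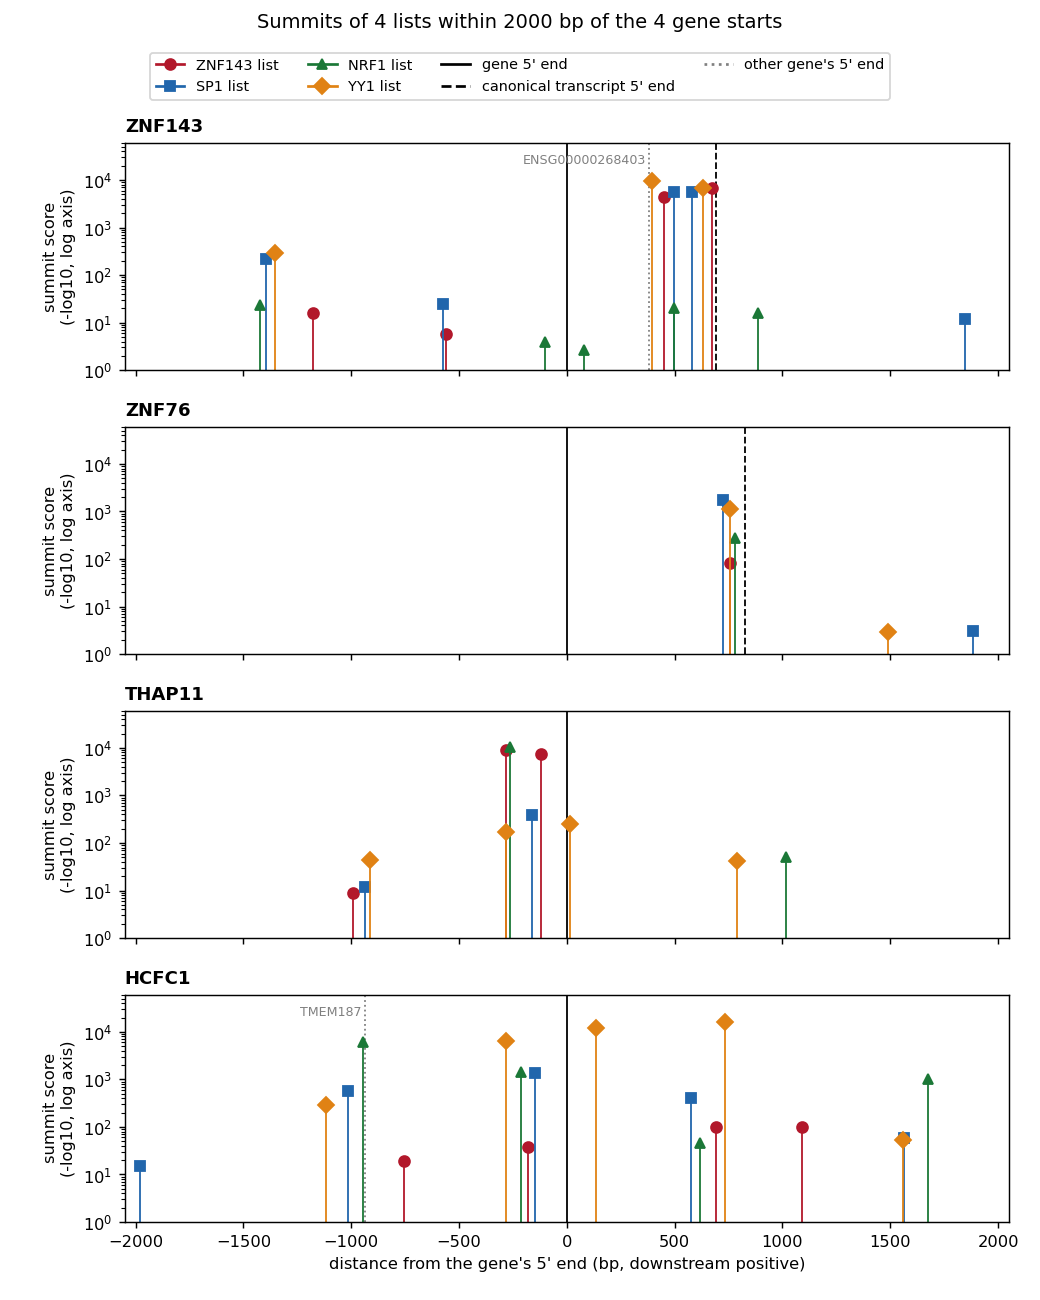
Each marker is a summit, placed by its distance from the gene's 5′ end in bp (horizontal axis) and by its score on a log axis (vertical axis), with 1 panel per gene and 1 colour per list. The highest markers at ZNF143 stand 395 to 673 bp downstream of the gene's 5′ end and short of the dashed canonical start, at ZNF76 all 4 lists share 1 place, and among YY1 markers the highest of the 4 panels is at HCFC1 (heights compare only within a colour).

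The ZNF143 gene (ENSG00000166478.10, chromosome 11, 9460319 to 9528524, forward strand) carried summits of its own product. Whether the protein contacts this DNA directly or through other factors was not tested. Its 4 ZNF143 summits, all of 1 peak, lay at −1175, −560, 450 and 673 bp from the 5′ end of the gene. Their scores were 15.8, 5.77, 4395 and 6631. The 2 downstream summits took ranks 1009 and 684 of 16600, in the top 6.08% and 4.12% of the list, while the 2 upstream ones ranked 7611 and 12307. The downstream pair was thus high in the list and the upstream pair was not.

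The position of the strong pair depends on which start is used. GENCODE places the 5′ end of the gene at 9460319, the start of 1 transcript, while the canonical transcript starts 693 bp further downstream, at 9461012, which is also the RefSeq start. Of 17 distinct transcript 5′ ends, 10 lay within 100 bp of the canonical one, from 657 to 738 bp. Measured from the canonical start, the 2 strong summits were at −243 and −20 bp. Both lie in untranslated exons of transcripts that start further upstream. The reference sequences of hg38 around them, on the gene's strand with the summit base in capitals, are shown because they hold the highest ZNF143 summits at its own gene.
ZNF143 summit at 450 bp (chr11:9460755-9460783): gataagcggttatgTcaaccagtcagaca
ZNF143 summit at 673 bp (chr11:9460978-9461006): acacactatgcgggTtgcggggcctgggg

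The other lists were high at the same place, except for NRF1. SP1 is a factor that binds GC boxes. It had 5 summits at the ZNF143 gene, scored 219, 24.2, 5484, 5543 and 12.2 at −1394, −574, 496, 580 and 1849 bp. The pair between the 2 strong ZNF143 summits ranked 79 and 75 of 126275. YY1, a zinc finger factor of promoters and enhancers, had 3 summits, scored 298, 9638 and 6774 at −1353, 395 and 634 bp, and the last 2 ranked 90 and 160 of 106658. NRF1, a factor of nuclear genes for mitochondrial and other housekeeping proteins, had 5 summits at −1425, −99, 78, 499 and 886 bp, scored 23.1, 3.97, 2.60, 20.4 and 16.2. Its best rank was 9391 of 39194. SP1 and YY1 thus had summits near the top of their lists here, and NRF1 did not.

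Around the 450 bp summit, SP1, NRF1 and YY1 summits were 46, 49 and 55 bp away. Around the 673 bp summit, YY1 and SP1 were 39 and 93 bp away and NRF1 174 bp. A long noncoding RNA gene (ENSG00000268403.3) starts 383 bp downstream of the 5′ end of ZNF143 and runs the other way, across the gene's annotated start. The highest YY1 summit lay 12 bp upstream of that RNA's 5′ end. Of the 17 summits, 9 were nearer to the start of this RNA than to the 5′ end of the gene, including both high summits of each of ZNF143, SP1 and YY1. Of these 9, 4 were also nearer to it than to the canonical start: YY1 at 395 bp, ZNF143 at 450 bp, SP1 at 496 bp and NRF1 at 499 bp. To which of the transcripts these summits belong was not tested. A lower group of summits stood further upstream, at −1425 (NRF1), −1394 (SP1) and −1353 bp (YY1), and ZNF143 was 178 bp from the YY1 summit.

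Motifs were searched on both strands within 50 bp of each summit and in the whole window. The core of the ZNF143 site was written CCCANNATG, the sequence beside it that depends on THAP11 as ACTACA, the GC box as GGGCGG, the NRF1 site as GCGCATGCG and the YY1 site as AANATGG, where N is any base. The motifs may overlap each other, and a match describes the letters only. The ZNF143 gene held no CCCANNATG within 2000 bp, against 46.5% of protein-coding windows with at least 1 copy. It held 3 ACTACA copies (80.5% of windows have at least 1), none within 50 bp of a ZNF143 summit, 5 GGGCGG copies (84.9%) and no GCGCATGCG (4.25%). It held 6 AANATGG copies (94.5%). Of these, 3 were followed by CG, a longer motif present in 17.1% of windows and in 3 or more copies in 45 windows (0.225%). That longer form, AANATGGCG, was chosen after the sequences were seen. Its copy centred at 370 bp lay 25 bp from the highest YY1 summit, and the 1 at −1334 bp lay 19 bp from the upstream YY1 summit.

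ZNF76 (ENSG00000065029.15, chromosome 6, 35258909 to 35295985, forward strand) had the simplest arrangement. Each list had 1 main summit, and all 4 stood within 54 bp of each other. They were SP1 at 724 bp (score 1782, rank 987), YY1 at 756 bp (1154, rank 1625), ZNF143 at 758 bp (83.0, rank 3908) and NRF1 at 778 bp (282, rank 4158). The only other summits in the window were an SP1 summit of 3.11 at 1885 bp and a YY1 summit of 2.93 at 1488 bp, near the bottom of their lists. ZNF143 was within the top 23.5% of its list, weaker than at its own gene or at THAP11.

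The 4 main summits lay just before the canonical start, which is 826 bp downstream of the gene's 5′ end. At the ZNF143 gene this held for the highest ZNF143 and SP1 summits, but not for the highest NRF1 summit. Measured from the canonical start of ZNF76, its summits were at −102 (SP1), −70 (YY1), −68 (ZNF143) and −48 bp (NRF1). They lay in an untranslated exon of transcripts that start upstream. The sequence at the ZNF143 summit is given for comparison with those of its paralogue.
ZNF143 summit at ZNF76 (chr6:35259653-35259681): ggttccggggcccgGtagaggcgcgccaa

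The ZNF76 window held no CCCANNATG and no GCGCATGCG, 2 ACTACA copies, 11 GGGCGG copies and 1 AANATGG. As many GGGCGG copies were found in 15.1% of protein-coding windows. A GGGCGG lay within 50 bp of the SP1, ZNF143 and YY1 summits. The ACTACA and AANATGG copies lay in none of those stretches.

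THAP11 (ENSG00000168286.3, chromosome 16, 67842320 to 67844195, forward strand) is a gene with 1 annotated 5′ end that lies within the bounds of CENPT, a kinetochore gene on the other strand (ENSG00000102901.13, 67828157 to 67847811), and overlaps introns and exons of it. It carried the highest ZNF143 scores of the 4 genes. The 3 ZNF143 summits, of 1 peak, lay at −991, −283 and −120 bp with scores of 8.86, 9117 and 7616. The 2 near summits ranked 475 and 592 of 16600, in the top 2.86% and 3.57%, and differed by a factor of 1.20. Both lay in an intron of CENPT.

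NRF1 was high beside the upstream ZNF143 summit. Its summit at −265 bp, 18 bp away, scored 10197 and ranked 393 of 39194, and its second, at 1015 bp in the THAP11 coding sequence and a CENPT exon, scored 51.7. SP1 had summits of 11.9987 at −937 bp and 388 at −160 bp, the latter at rank 7797. YY1 had 4, scored 43.8, 174, 250 and 40.9 at −915, −280, 16 and 789 bp. The highest YY1 summit, 16 bp past the start of the gene, was at rank 6271. The YY1 summit at −280 bp stood 3 bp from the ZNF143 summit, but its score put it only in the top 8.25% of its list. The best summits at THAP11 were thus in the top 1.00% of the NRF1 list, 2.86% of ZNF143, 5.88% of YY1 and 6.17% of SP1.

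The THAP11 window was the only 1 of the 4 with an exact core of the ZNF143 site, which 46.5% of protein-coding windows hold. Its 1 exact CCCANNATG was centred 74 bp from the nearest ZNF143 summit. The window also held 4 ACTACA copies, and 14.2% of protein-coding windows had as many ACTACA. Read as 1 pattern of 18 positions, ACTACA, then 3 bases of any kind, then CCCANNATG, with at most 1 mismatch, the window held 2 copies, both on the strand opposite to the gene. This pattern was chosen after the THAP11 sequence was seen. Among protein-coding windows, 3.57% held at least 1 copy and 95 (0.476%) held 2 or more. Within 50 bp it was found at 4.32% of all ZNF143 summits. The share was 0.436% for the NRF1 list, 0.259% for YY1 and 0.200% for SP1. The closest match in the other 3 windows had 4 mismatches at ZNF143, 4 at ZNF76 and 3 at HCFC1.

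The first copy spans −323 to −306 bp and is centred 31.5 bp from the stronger ZNF143 summit. The second spans −50 to −33 bp and is centred 78.5 bp from the weaker 1. Counted from 1 at the 5′ end of the pattern, the first differs from it by A13G and the second by A6G. The sites are shown with the 18 positions in capitals, on the reverse strand of hg38.
THAP11 site 1 (chr16:67841991-67842020): acggagACTACAAATCCCGTGATGcctcgc
THAP11 site 2 (chr16:67842264-67842293): aaagagACTACGCCCCCCACAATGccccgc

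The stretch from −330 to −31 bp shows how these sites frame the rest of the promoter. It is printed on the gene's strand, so that the sites appear as their reverse complements in capitals, and it holds both near ZNF143 summits, the NRF1 summit and the main SP1 summit.
THAP11 upstream stretch (chr16:67841990-67842289): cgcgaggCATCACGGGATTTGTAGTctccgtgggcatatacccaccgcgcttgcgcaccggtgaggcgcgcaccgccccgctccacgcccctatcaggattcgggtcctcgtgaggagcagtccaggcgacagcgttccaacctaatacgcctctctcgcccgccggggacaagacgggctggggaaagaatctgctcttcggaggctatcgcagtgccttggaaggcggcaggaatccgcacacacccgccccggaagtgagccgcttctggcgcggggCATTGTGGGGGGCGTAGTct

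Between the sites lies an NRF1 motif with 1 mismatch, centred 15 bp from the NRF1 summit and 3 bp from the ZNF143 summit. It is given on the gene's strand with the 9 positions in capitals. No exact GCGCATGCG lay in the window. With 1 mismatch there were 4 matches, 2 of them overlapping here on opposite strands, and 5.24% of protein-coding windows had as many.
THAP11 NRF1 motif (chr16:67842027-67842053): atacccaccGCGCTTGCGcaccggtga

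HCFC1 (ENSG00000172534.14, chromosome X, 153947557 to 153971818, reverse strand) stood out in the YY1 list. Its 5 YY1 summits lay at −1115, −283, 134, 734 and 1561 bp with scores of 289, 6406, 11925, 16424 and 54.3. The 3 highest ranked 180, 52 and 24 of 106658 and lay on both sides of the start of the gene, 2 of them in an untranslated exon. Only 24 of all protein-coding genes had a higher YY1 score in their windows.

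The ZNF143 signal at HCFC1 was spread over 4 summits of 1 peak and was lower. They scored 19.5, 38.5, 99.98 and 101 at −756, −180, 693 and 1091 bp, at ranks from 6947 to 3675 of 16600. The 2 highest differed by a factor of 1.01 and are not ordered by these data. That at 693 bp lay 41 bp from the highest YY1 summit. That at 1091 bp, in the coding sequence, stood alone, with the closest summit of another factor (YY1) at 734 bp. None of the 4 reached the top 10% of its list. The sequences at the middle pair are given on the gene's strand with the summit base in capitals, since these are the 2 that had summits of 2 other lists within 100 bp.
HCFC1 ZNF143 summit at −180 bp (chrX:153971984-153972012): tcgagctttagcccAgcgcgcggcagcgc
HCFC1 ZNF143 summit at 693 bp (chrX:153971111-153971139): taagcgggagcgccCggacaagtagtcgg

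SP1 had 5 summits at HCFC1, scored 15.4, 556, 1344, 398 and 57.2 at −1981, −1013, −146, 578 and 1563 bp, and the highest ranked 1612 of 126275. NRF1 had 4, scored 6106, 1425, 45.5 and 1032 at −943, −214, 619 and 1673 bp. Part of this signal lies at another gene: TMEM187 (ENSG00000177854.8) starts at −936 bp of HCFC1 and runs the other way. The highest NRF1 summit lay 7 bp downstream of the TMEM187 start, and 1 ZNF143, 2 SP1, 1 NRF1 and 1 YY1 summit of the window were nearer to TMEM187 than to HCFC1. Without that NRF1 summit, the highest at HCFC1 was 1425, at rank 2688 of 39194.

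The HCFC1 window held 8 copies of AANATGG (3.06% of protein-coding windows had as many), and all 8 were the longer AANATGGCG. The only other protein-coding window with 8 or more was that of TMEM187, which shares this sequence. Of the 8 copies, 6 lay on the gene's strand, beginning at −290, 4, 225, 450, 643 and 828 bp, with 185 to 294 bp from 1 to the next. In 5 of those 6 at least the next 7 bases were the same. They are shown on their own strand, with the motif in capitals.
HCFC1 copy at −290 bp (chrX:153972091-153972117): ggaagtggcAAGATGGCGgctcccagg
HCFC1 copy at 4 bp (chrX:153971797-153971823): tcttcacacAAGATGGCGgctcccagg
HCFC1 copy at 225 bp (chrX:153971576-153971602): gctagtctcAAGATGGCGgctcccacg
HCFC1 copy at 450 bp (chrX:153971351-153971377): gacggtctcAAGATGGCGgctcccaca
HCFC1 copy at 643 bp (chrX:153971158-153971184): aggcggctcAAGATGGCGgctcccagg
HCFC1 copy at 828 bp (chrX:153970973-153970999): agggcagttAAGATGGCGgcctccatg

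The copy at −290 bp was centred 3 bp from a YY1 summit. The 5 downstream copies were further away: those at 225, 643 and 828 bp were centred 95, 87 and 98 bp from the nearest YY1 summit, that at 4 bp 126 bp and that at 450 bp 280 bp. The YY1 summits at 134 and 734 bp thus stood between copies, the latter between those at 643 and 828 bp. The HCFC1 window also held 19 GGGCGG copies, as many as in 2.61% of protein-coding windows, and no CCCANNATG or ACTACA. NRF1 motifs with 1 mismatch were centred 12 bp from the NRF1 summit at TMEM187 and 8 bp from that at −214 bp. The latter is shown with the motif in capitals.
HCFC1 NRF1 motif (chrX:153972027-153972053): gggcggggcGCGCCTGCGcctgcacct

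**Figure D2:**
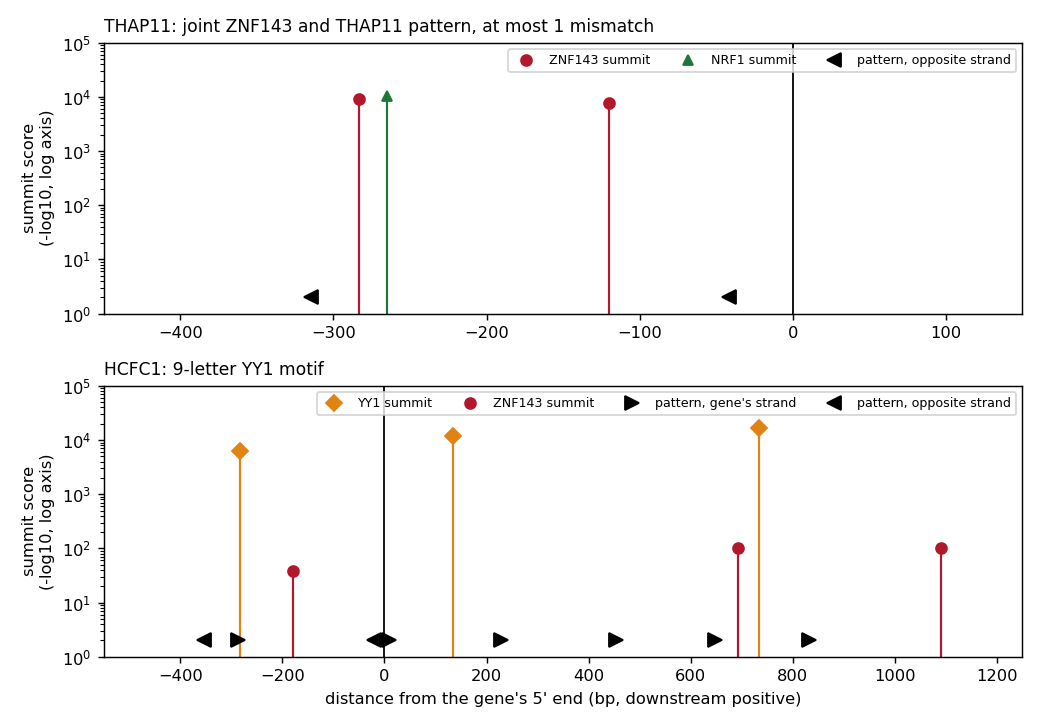
The upper panel places 2 ZNF143 summits and the NRF1 summit of the THAP11 promoter against the 2 copies of the joint pattern, and the lower panel places YY1 and ZNF143 summits at HCFC1 against the 8 copies of the 9-letter YY1 motif. The horizontal axis is the distance from the gene's 5′ end in bp, the vertical axis the score on a log axis, and the black arrowheads, drawn at a fixed height, give position and strand only.

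Over the 4 genes, summits with an exact motif of their own factor within 50 bp were counted. This was so for 0 of 12 ZNF143 summits (6.63% of all ZNF143 summits) and 4 of 14 SP1 summits (10.0%). It was so for 0 of 12 NRF1 summits (1.93%) and 3 of 14 YY1 summits (16.6%). With 1 mismatch allowed, the counts were 5, 12, 3 and 8. The share over the whole list at 1 mismatch was computed for NRF1 only (11.1%). The other counts have no such share beside them and cannot be read as more than background. The GC box was at 6 of 12 ZNF143 summits (20.6% of that list) and at 8 of 14 YY1 summits (9.61%), and the 4 windows had a GC content of 48.8% (ZNF143), 53.2% (ZNF76), 54.7% (THAP11) and 63.5% (HCFC1). The part of base composition in these counts was not tested.

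Each gene was next ranked among all 19970 protein-coding genes by its highest score within 2000 bp. For ZNF143 binding, THAP11 ranked 474 (percentile 97.63), ZNF143 ranked 678 (96.60), HCFC1 ranked 2483 (87.56) and ZNF76 ranked 2580 (87.08). The scores fall into 2 levels, 9117 and 6631 against 101 and 83.0, and without replicates the order within each level cannot be set against an error. For SP1 the order was ZNF143 (rank 34), ZNF76 (487), HCFC1 (789) and THAP11 (3978). For NRF1 it was THAP11 (423), HCFC1 (1082), ZNF76 (3758) and ZNF143 (7091). The HCFC1 rank for NRF1 rests on the summit 7 bp from the TMEM187 start, and without it the highest score was 1425. For YY1 the order was HCFC1 (25), ZNF143 (97), ZNF76 (1684) and THAP11 (4715). No gene was first in all lists. All 16 scores except 1 were above the median of the genes with a summit, 23.6 in the ZNF143 list, 207 in SP1, 53.3 in NRF1 and 146 in YY1. The exception was NRF1 at the ZNF143 gene.

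**Figure D3:**
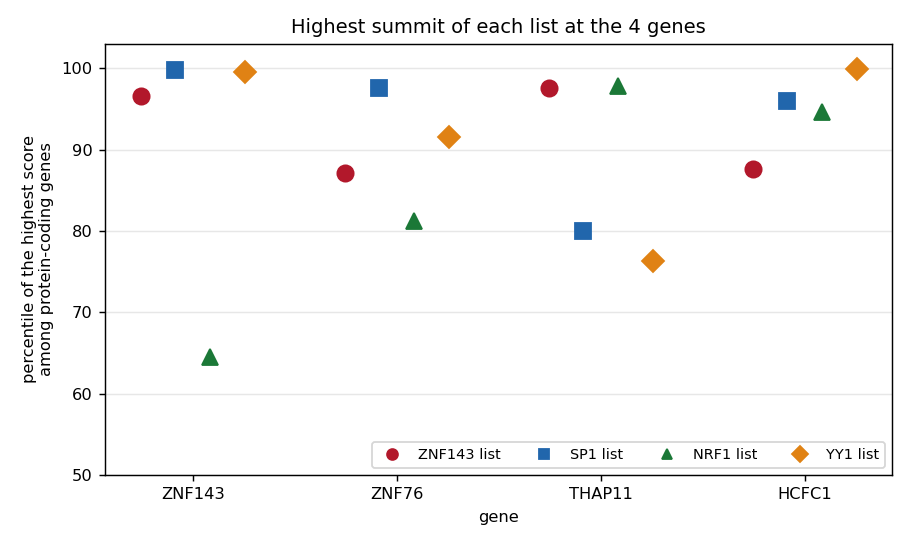
Each marker is the percentile (vertical axis, from 50) of a gene's highest score within 2000 bp among all protein-coding genes, for 1 list at 1 gene (horizontal axis). THAP11 has its ZNF143 and NRF1 markers above its SP1 and YY1 markers, and the ZNF143 gene has its NRF1 marker at 64.49, below its other 3. The NRF1 marker of HCFC1 rests on a summit nearer to the TMEM187 start than to that of HCFC1.

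The number of summits also varied. With 4 ZNF143 summits each, ZNF143 and HCFC1 had as many as 155 protein-coding genes do (0.776%), and the 3 at THAP11 were reached by 554 (2.77%), where the median gene with a ZNF143 summit had 1. ZNF143 and HCFC1 also had 5 SP1 summits each, as many as 5.95% of genes. ZNF76 had 1 ZNF143 summit, the median number.

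To place these profiles, the 2 protein-coding genes closest to each over the 4 percentiles were found, by the largest difference in any list. For THAP11 they were GTSE1 (largest difference 1.82 percentile points) and POLRMT (2.18), both with higher NRF1 scores, 13191 and 14646, and lower ZNF143 scores, 5383 and 7097. For ZNF76 they were ANP32E (1.56) and AP4B1 (1.95), and for HCFC1 DOHH (2.16) and AKT1S1 (2.43). The HCFC1 profile used here includes the NRF1 summit that is nearer to TMEM187. For ZNF143 they were CDC45 and UFD1 (2.80 each), whose windows hold the same highest summits, with a ZNF143 score of 19389 and a YY1 score of 30141 beside an NRF1 score of 21.0. This likeness rests on 4 values per gene.

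Genes of related proteins were looked at in the same windows, in lists chosen with earlier results of these data known. Their counts and highest scores are therefore no independent support. Of 18 genes that encode partners of HCFC1, its relatives or a target (such as the methyltransferase KMT2A and the deubiquitinase BAP1), all 18 had a summit of each of the 4 lists. The background shares are those given for all protein-coding genes above. Their median percentile was 87.9 in the ZNF143 list, 81.2 in SP1, 81.4 in NRF1 and 83.9 in YY1, beside medians over all protein-coding genes of 0, 49.9, 49.9 and 49.9. The highest ZNF143 scores of these 18 were at MMACHC, which encodes a protein of cobalamin metabolism (30233), MEN1, which encodes menin, a cofactor of KMT2A (12947), and ASXL1, a cofactor of BAP1 (12848). With HCFC1R1, which encodes an HCFC1 regulator (9243), 4 of the 18 had a higher ZNF143 score than any of the 4 genes described here. HCFC2, the paralogue of HCFC1, had a ZNF143 score of 3638, against 101 at HCFC1, and a YY1 score of 2076 against 16424. HCFC1R1, HCFC2 and the next 2 genes named (THAP5 and THAP3) were singled out after their values were seen.

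Of 11 other genes of the THAP family, 10 had a ZNF143 summit, 11 an SP1 summit, 10 an NRF1 summit and 11 a YY1 summit. Over all protein-coding genes the shares were 37.4%, 66.5%, 55.8% and 65.3%. No ZNF143 summit was listed at THAP5 and no NRF1 summit at THAP3. The highest ZNF143 scores were 687 at THAP12, 184 at THAP2 and 65.3 at THAP6, all below the 9117 at THAP11. The median percentiles were 80.4 (ZNF143), 81.9 (SP1), 76.4 (NRF1) and 88.7 (YY1), beside 0, 49.9, 49.9 and 49.9 over all protein-coding genes. Summits of all 4 lists were present at 9 of the 11 (81.8%), against 35.3% of all protein-coding genes.

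**Figure D4:**
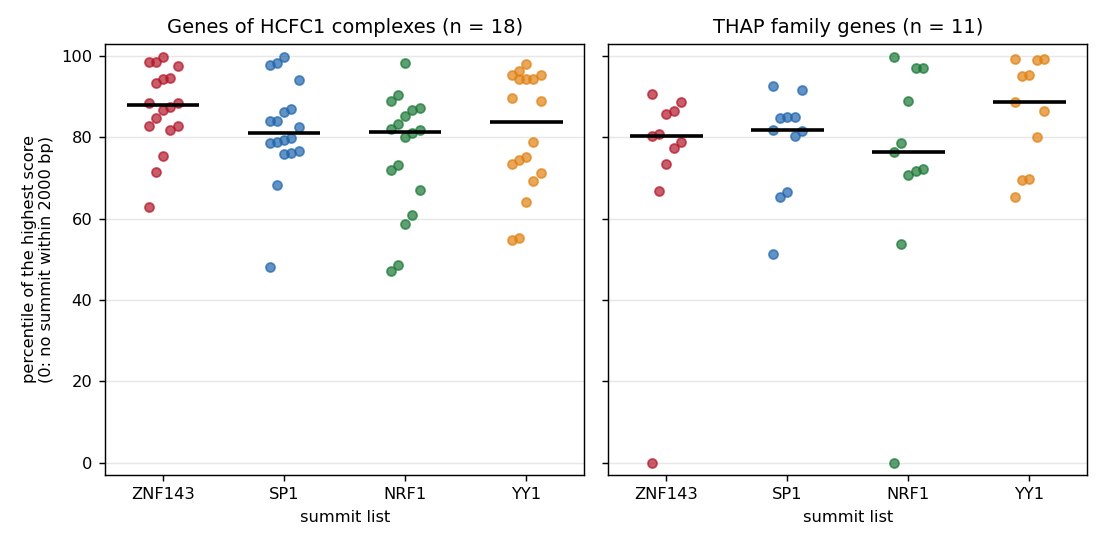
Each point is a gene, placed by the percentile of its highest score within 2000 bp (vertical axis, 0 where there is no summit) in each of the 4 lists (horizontal axis). On the left are the 18 genes of HCFC1 partners, its relatives or a target, and on the right 11 THAP family genes. Bars are medians. The 2 points at 0 on the right are THAP5 in the ZNF143 list and THAP3 in the NRF1 list.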

How the data were processed

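The members and gene lists were chosen with earlier results of these data known. The authors deposited 4 lists of 1-bp summits, whose score column is, judging by its values, on a −log10 scale. Whether of p or of q, the settings, the filters and the pooling are not given in the sources used here. Per the submitters' processing notes, cutadapt, Bowtie2, SAMtools 1.16.1, MACS3 and bedtools were used, with hg38. For NRF1 and YY1 the list was matched to its samples by antibody, since their labels point to none. Depth per sample is unknown. Signal tracks and a list of the mock samples were not used here.

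Positions were compared with hg38 and GENCODE 44 in Python 3.11.15 with pysam 0.24.0. The 5′ end of a gene is that of its annotated gene record, and offsets follow its strand. Ranks count from the highest score over the whole list, and gene percentiles are the share of 19970 protein-coding genes with a lower highest score. The window and motif functions were tested on simulated positions. No test was made, since no value per sample exists. The RefSeq promoter table matched 2 of the 4 genes, ZNF143 and THAP11, and was used for its start positions. Named genes were the 4, those with a 5′ end in their windows, the 2 most alike per gene, and the 3 highest ZNF143 scores of each related list. Outside this rule, CENPT is named for its overlap with THAP11, KMT2A and BAP1 as examples of their list, and HCFC1R1, HCFC2, THAP3 and THAP5 after their values were seen. The alternatives were other windows, starts, score cutoffs, list lengths, motif distances and mismatches. Protein sequences were not analysed here.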

Additional observations from a re-analysis of the deposited data

How the results depend on the processing

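Of 76 alternatives, 62 left a count within a factor of 1.5 or a score the same. Among them, the 52 summits became 68 from any transcript 5′ end, 40 with lists of equal length and 37 within 1000 bp. Within 500 bp of the 5′ ends, the 16 pairs of gene and list with a summit became 12, since ZNF76 then had none. The summits became 17 within 500 bp and 17 with 1 summit per peak, both by construction. Within 500 bp the highest ZNF143 score was 4395 at ZNF143, 38.5 at HCFC1 and 0 (no summit) at ZNF76, and within 1000 bp it was 99.98 at HCFC1. With 1 mismatch allowed, own motifs were at 5 ZNF143, 12 SP1, 3 NRF1 and 8 YY1 summits, with a share over the whole list known only for NRF1. Within 100 bp, exact ones were at 1 ZNF143, 8 SP1, 0 NRF1 and 5 YY1 summits. The shares over the whole lists at 100 bp were not computed, so these counts cannot be read as more than background. The joint pattern, chosen after seeing the data, was at 1 ZNF143 summit. Of 18 alternatives for the gene percentiles in the ZNF143 list, 10 moved them: at ZNF76 from 87.08 to 0 within 500 bp, and at the other 3 genes to between 86.69 (HCFC1, 500 bp) and 99.06 (THAP11, all annotated genes). No paired analysis was possible because the lists hold no value per sample, and leaving out a replicate was not possible for the same reason. Depth is unknown, so a weak summit and an absent one cannot be told apart by counting error.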
